A study of Mus musculus with 6 samples.

Results

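*Epas1* encodes HIF-2α, an oxygen-regulated transcription factor, and its gene body held 46 of the 18333 differentially methylated regions (DMRs) listed between infant and young adult lung endothelial cells (EC). All 46 DMRs had a lower methylation level in the young adult group. A DMR was counted as a member when its midpoint lay within the gene, which RefSeq places on the plus strand at chr17:86753864-86833410 of GRCm38 (mm10). The median methylation level of the 46 DMRs was 54.0% in infant EC and 13.9% in young adult EC. Of the 46 DMRs, 36 lay in the first intron, and the promoter CpG island and the 6.69 kb that follow the transcription start site (TSS) held none.

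The methylome was measured by T-WGBS, a bisulfite sequencing of the whole genome from tagmented DNA that reads the methylated share of each CpG. Each age had 3 samples, taken from C57BL/6N mice aged 8 to 10 days (infant) or 8 to 12 weeks (young adult) that carried no further allele or treatment in the labels and that the study's methods describe as female. EC were sorted from lung as living PTPRC- LYVE1- LY76- PDPN- CD31+ CD34+ cells, and the comparison asks how the methylome of EC changes as vessels become quiescent. The study's description speaks of 3 infant and 3 young adult mice, and the table holds no expression values against which the identity of the sorted cells could be checked. The table gives 1 group mean per DMR and age, averaged over CpGs and samples by the authors, so no value per sample, no spread between replicates and no test can be given, and "lower" refers to DMRs that passed the authors' own criteria.

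HIF-2α is the α subunit of a heterodimer with ARNT. In the presence of oxygen, prolyl hydroxylases of the EGLN family mark the α subunit, the VHL ubiquitin ligase binds it and it is degraded; in hypoxia it enters the nucleus and binds DNA with ARNT. EC express *Epas1* strongly, and the gene is known for its part in vascular development and in the remodelling of the pulmonary circulation. The methylation of CpGs at intronic enhancers is generally low where these are active, whereas the bodies of transcribed genes are otherwise highly methylated.

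*Epas1* was chosen by the DMRs it contains, so their number, direction and size describe the selection and are given without a test. Among all listed DMRs, 45.9% lost methylation. Losses were found in the bodies of 8.46% of 26180 annotated genes and gains in 11.4%, and 1.81% of the genes held more than 5 DMRs. At the edges of the gene, the first member lay 6.69 kb inside the start, with 31.8% methylation in infant EC and 3.72% in young adult EC, and the last lay in the final exon, with 74.3% and 45.6%. The nearest DMRs outside lay 35.0 kb before the start and 53.7 kb after the end. Both gained methylation, from 69.4% to 91.2% and from 73.7% to 93.6%.

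The following stretches show what these DMRs consist of. They are read from the GRCm38 reference, plus strand, 5′ to 3′, with each CpG in capitals. Region numbers count the 46 DMRs from the TSS. The first 3 were picked for the largest loss, the most CpGs among DMRs of up to 300 bases and the lowest young adult level. Region 7 (the highest infant level), region 37 (the narrowest DMR) and 300 bases of region 6 (the widest DMR) were picked after their values were seen.
Region 29, largest loss, intron 1, chr17:86792103-86792272: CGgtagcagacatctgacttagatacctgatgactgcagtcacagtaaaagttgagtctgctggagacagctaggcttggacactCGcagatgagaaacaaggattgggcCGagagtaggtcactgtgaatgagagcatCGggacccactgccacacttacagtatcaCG
Region 33, most CpGs, intron 1, chr17:86794970-86795111: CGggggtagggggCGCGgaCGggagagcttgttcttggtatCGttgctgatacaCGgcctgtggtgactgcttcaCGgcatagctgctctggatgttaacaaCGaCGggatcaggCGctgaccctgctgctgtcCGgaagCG
Region 38, lowest young adult level, intron 2, chr17:86803134-86803223: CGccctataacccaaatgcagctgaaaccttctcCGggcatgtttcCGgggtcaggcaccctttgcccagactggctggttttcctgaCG
Region 7, highest infant level, intron 1, chr17:86766865-86766943: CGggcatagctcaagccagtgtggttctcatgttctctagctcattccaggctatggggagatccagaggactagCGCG
Region 37, narrowest, intron 2, chr17:86799667-86799682: CGactCGaagctcaCG
Region 6, part of the widest, intron 1, chr17:86764840-86765139: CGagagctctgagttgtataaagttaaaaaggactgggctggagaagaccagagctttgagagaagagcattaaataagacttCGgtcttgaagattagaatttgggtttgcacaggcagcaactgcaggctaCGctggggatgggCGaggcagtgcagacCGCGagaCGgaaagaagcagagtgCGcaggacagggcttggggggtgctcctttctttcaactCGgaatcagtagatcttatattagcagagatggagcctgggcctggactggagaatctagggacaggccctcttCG
Region 29 fell from 67.0% in infant EC to 9.16% in young adult EC, a difference of -57.8 percentage points over 5 CpGs. Its CpGs stand far apart, whereas the 12 CpGs of region 33 crowd into 142 bp. Region 33 went from 55.0% to 18.3%. Region 38 was low at both ages, 17.8% and then 0.877%. Region 7 started at 81.4% and ended at 31.2%, above the starting level of 4 other members. Region 37, which spans 16 bp, had the smallest loss, from 19.6% to 6.34%.

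The DMRs of *Epas1* covered a minor part of the gene. Together they spanned 15018 bp, or 18.9% of its 79.5 kb, and held 314 of its 1297 CpGs (24.2%). The first and the last DMR lay 72.7 kb apart. A DMR had a median of 4.5 CpGs (3 to 29) and a median width of 189.5 bp (16 to 2118). Infant levels ranged from 17.8% to 81.4% with quartiles of 44.7% and 64.2%, and young adult levels from 0.877% to 45.6% with quartiles of 7.50% and 22.5%. The difference between the ages had a median of -38.9 points and reached from -57.8 to -13.2. The young adult level was a median of 25.4% of the infant level of the same DMR, between 4.93% and 61.3%. The spread among the DMRs of the gene (SD over the 46 DMRs of 15.8 points in infant EC and 10.7 in young adult EC) is one between places in a gene, not between animals.

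**Figure D1:**
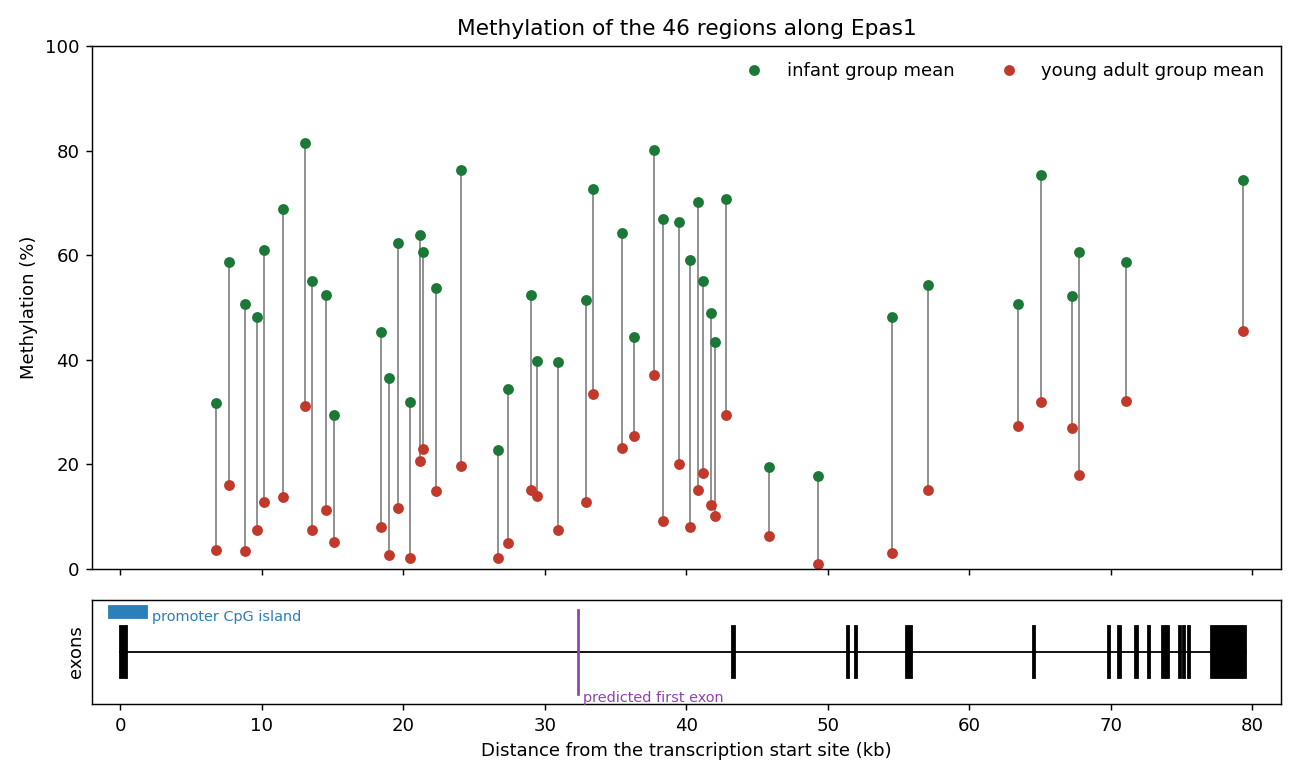
Methylation level in percent (y axis) of each of the 46 DMRs by distance from the TSS in kb (x axis), with the infant group mean in green, the young adult group mean in red and a grey line joining the pair; the lower strip shows the exons, the promoter CpG island and the predicted alternative first exon. Every red point lies below its green partner, 36 pairs stand before exon 2, and the lowest young adult value is 0.877%.

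The first intron carried most of the loss. It makes up 53.8% of the gene's length and 52.0% of its CpGs, and it held 36 of 46 DMRs (78.3%, 95% Wilson interval 64.4 to 87.7%, which covers counting only and treats neighbouring DMRs as independent). Of its 675 CpGs, 39.4% lay in a DMR, against 7.72% of the 622 CpGs in the remainder of the gene. Intron 1 went from a median of 54.4% to 12.8% and retained a median of 22.6% of the infant level. The 10 DMRs elsewhere went from 53.2% to 22.5% and retained 37.4%. Infant levels thus lay close together in the 2 parts of the gene, and the young adult levels lay further apart.

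Outside intron 1, DMRs occurred in introns 2, 4, 6, 7 and 9 and in exon 16, and 9 of the 15 introns held none. The 2 DMRs of intron 2 had the lowest infant levels of the gene, with a median of 18.7% that went to 3.61%. Intron 4 held 1 DMR, which went from 48.1% to 3.08%. The pair in intron 6 had medians of 52.4% and 21.2%. Intron 7 held 3 DMRs with 28.4% of its 67 CpGs, and medians of 60.6% and 27.0%. The DMR of intron 9 went from 58.8% to 32.2%. The only exonic DMR lay in exon 16 beyond the stop codon, in the 3′ untranslated region, and retained the largest share of its methylation, 74.3% against 45.6%. It was separated from the preceding DMR by 8.11 kb and 158 CpGs without a listed DMR.

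Loss was unevenly spread along the gene in steps of 10 kb from the TSS. The first 10 kb held 202 CpGs, of which 11.4% lay in a DMR. From 10 to 20 kb, 60.5% of 162 CpGs did. The next 3 stretches were alike at 33.6%, 34.2% and 33.0%. From 50 kb on the share was 5.30%, 14.3% and 6.19%. The young adult median was 5.61% in the first stretch and 38.9% in the last, which hold 4 and 2 DMRs. Over the 46 DMRs, the distance from the TSS had a Spearman correlation of 0.46 with the retained share and of 0.38 with the young adult level, against 0.11 with the infant level. These correlations describe 46 neighbouring places in 1 gene that share their 6 samples.

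**Figure D2:**
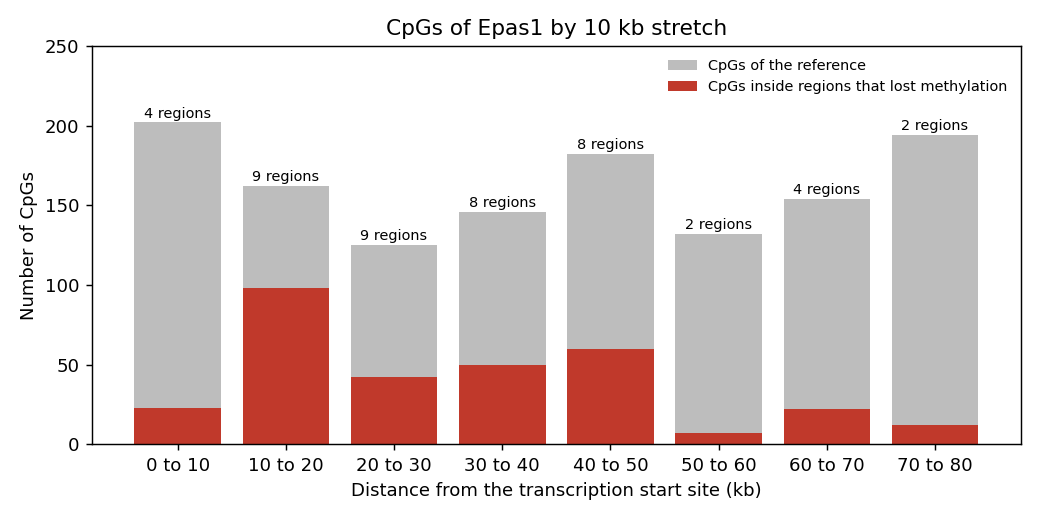
Number of CpGs (y axis) in each 10 kb stretch from the TSS (x axis, kb), with all reference CpGs in grey and those inside a DMR in red, and the number of DMRs above each bar; the last bar covers the 9.55 kb left at the end of the gene. The stretch from 10 to 20 kb has the highest red bar, 98 of 162 CpGs, and the one from 50 to 60 kb the lowest, 7 of 132.

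The promoter itself held no DMR. A CpG island at chr17:86753024-86755724, which spans 2701 bp and 177 CpGs, covers the promoter, the first exon and the start of intron 1, and it overlapped no DMR. None of the 164 CpGs between the TSS and the first DMR lay in one. Unlisted CpGs may have had equal methylation at both ages, too few reads, or a difference that fell short of the authors' criteria. The table cannot tell these apart. By the same rule for islands (200 bp or more, 50% or more of the bases G or C, and 0.6 or more of the CpGs that this composition would give), the locus held 21 islands, and 10 DMRs overlapped one. Besides the promoter island, these islands spanned 200 to 446 bp. The share of losses elsewhere that overlap an island was not counted.

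Several DMRs were neighbours in what amounts to longer stretches of loss. Of the 45 gaps between DMRs, 21 were at most 500 bp long, and 17 contained at most 3 CpGs. When DMRs up to 500 bp apart were joined, 25 stretches remained, and 3 of them held 4 or more DMRs. The longest joined regions 3 to 8 over 5.15 kb at chr17:86762552-86767696 and included 68 of the 80 CpGs there. Over the DMRs of this stretch, the CpG-weighted level was 61.3% in infant EC and 11.4% in young adult EC. CpGs between the DMRs have no listed level. Region 6 within the stretch, at chr17:86764262-86766379, spanned 2118 bp and 29 CpGs and went from 68.9% to 13.8%. It ranked 2 in both width and CpG number among the 8422 DMRs with loss in the genome.

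Another stretch joined regions 11 to 14 over 2.40 kb, with 41 of 46 CpGs in a DMR. Its DMRs went from a CpG-weighted level of 51.3% to 8.74%. Regions 13 and 14 there overlapped AC096777.1, a GENCODE gene model that awaits experimental support. Region 13 contained 19 CpGs and went from 62.3% to 11.7%. A further stretch joined regions 30 to 36 over 3.87 kb, held 57 of 66 CpGs in DMRs, and ended 38 bp before exon 2. Its DMRs went from a CpG-weighted level of 61.1% to 18.9%. Its members ranged from 8.13% to 29.4% in young adult EC. Region 32 went from 70.2% to 15.1%, and region 36, at the edge of exon 2, went from 70.8% to 29.4%, while its neighbour, region 35, went from 43.4% to 10.2%. Between next neighbours over the whole gene, the median step was 12.7 points in the infant level and 8.05 points in the young adult level.

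RefSeq also predicts a transcript with an alternative first exon inside intron 1, at chr17:86786184-86786284, 32.3 kb from the annotated TSS. Before this exon, 23 DMRs held 32.8% of the 509 CpGs of the intron and went from 52.4% to 11.3%. After it, 13 DMRs held 60% of 165 CpGs and went from 64.3% to 18.3%. Region 24 began 167 bp downstream of the predicted exon and went from 51.4% to 12.8% over 10 CpGs, and the preceding DMR ended 1287 bp upstream of it. The use of this exon in EC was not measured in the table.

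The DMRs of *Epas1* had a lower median in young adult EC than the losses elsewhere. The 8376 DMRs with loss outside the gene had medians of 61.6% in infant EC and 25.5% in young adult EC and a median difference of -32.4 points, against -38.9 in *Epas1*. They retained a median of 43.0% of the infant level, against 25.4%. Against the 6348 losses in introns of other genes, which went from 62.1% to 25.7%, the picture was alike. A young adult level below 20% was found in 32 of 46 DMRs (69.6%) of *Epas1* and in 37.9% of the losses outside it, and one below 10% in 34.8% and 16.7%. An infant level of at least 60% was found in 17 of 46 DMRs (37.0%) and in 52.9%. A loss of at least 40 points occurred in 45.7% of its DMRs and in 20.2% of those outside. Low young adult levels also occurred in the 5 genes nearest to *Epas1* in median levels, which are given further below. These genes were chosen by their levels, so low values in them follow from the choice. Levels below 20% made up 74.3% of the DMRs of *Calcrl*, 69.2% of *Smad7*, 60% of *Casz1* and 50% each of *Itpkb* and *Clic5*.

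**Figure D3:**
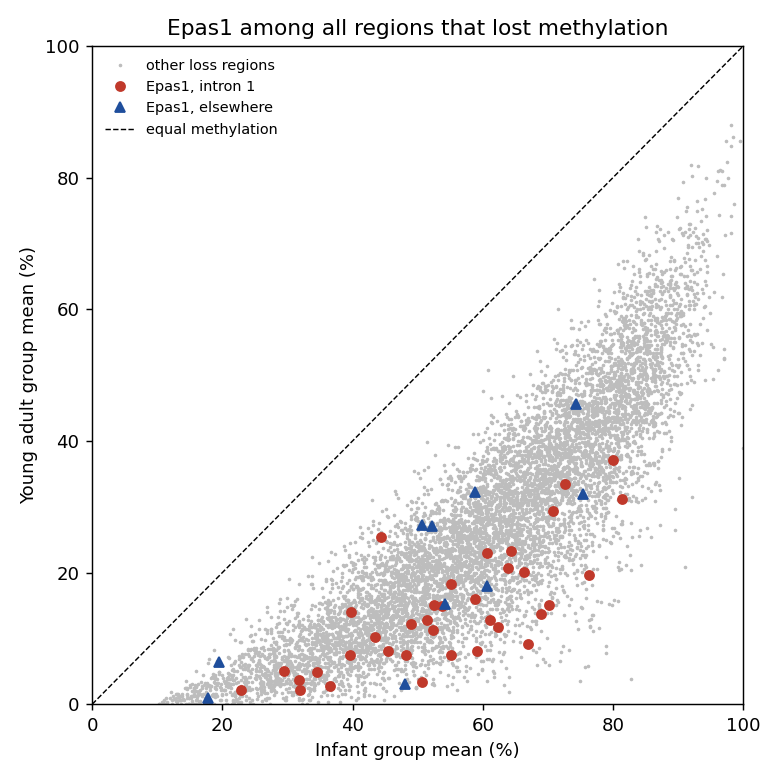
Infant (x axis) and young adult (y axis) methylation level in percent of each DMR that lost methylation, with 8376 DMRs outside Epas1 as grey dots, the 36 of its intron 1 as red circles and the 10 elsewhere in the gene as blue triangles; the dashed line marks equal levels. Most red circles lie in the lower part of the grey cloud, and 32 of the 46 Epas1 points lie below 20% on the y axis.

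The DMRs of *Epas1* also had more CpGs and were wider at the median, 4.5 CpGs and 189.5 bp against 3 CpGs and 130 bp. At least 10 CpGs were found in 11 of 46 (23.9%), against 2.54% of the losses outside the gene, and a width of at least 500 bp in 23.9% against 3.55%. The minimum of 3 CpGs accounted for 26.1% of its DMRs and for 52.6% of those outside. Base composition differed less, with a median GC content of 49.0% against 50.5% and a median of 2.34 CpGs per 100 bp against 2.94. Within the gene, DMRs with more CpGs tended to have larger losses (Spearman correlation of the number of CpGs with the difference -0.44, against -0.27 over all losses) and higher infant levels (0.37 against 0.05). The infant and young adult levels of a DMR correlated at 0.75 over the 46 DMRs and at 0.89 over all losses.

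Among genes, *Epas1* ranked 7 by the number of DMRs with loss. Of the 36 genes with at least 20 DMRs that all lost methylation, it ranked 3 from the lowest by young adult median, after *Calcrl* (7.80%), which encodes a receptor for calcitonin gene-related peptide and adrenomedullin, and *Smad7* (11.0%), an inhibitor of TGFβ signaling. By the share of CpGs in DMRs it ranked 5 of the 36. The 6 genes with more losses differed in how densely these lay. *Prkce*, a protein kinase C gene that lies before *Epas1* on the same chromosome, held 65 DMRs over 490 kb with 4% of its CpGs, and they went from 62.7% to 27.2%. *Prickle2*, a planar cell polarity gene, held 54 with 8.44% of its CpGs (73.1% to 37.4%), and *Pitpnc1*, a phosphatidylinositol transfer protein gene, held 51 with 6.47% (64.6% to 26.5%). *Arhgef3* held 60 DMRs, 1 of them a gain, with 8.98% of its CpGs (67.6% to 29.1%). The other two were dense. *Smad6*, an inhibitor of BMP signaling, held 61 DMRs with 27.7% of its CpGs (69.0% to 28.3%), and *Cyth3*, an ARF exchange factor gene, held 50 with 32.2% (75.5% to 29.8%). At least 10 CpGs were found in 11 DMRs of *Epas1*, in 11 of *Cyth3* (22%) and in 8 of *Smad6* (13.1%). Such DMRs numbered 2 each in *Prkce* and *Prickle2* and 1 each in *Pitpnc1* and *Arhgef3*. DMRs with at least 10 CpGs were thus not particular to *Epas1*. Among the 5 genes nearest in median levels, *Casz1* and *Itpkb* held 2 each, and *Smad7*, *Calcrl* and *Clic5* held 1 each. *Smad6*, *Arhgef3* and *Cyth3* were added after their values were seen.

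The genes whose median infant and young adult levels lay nearest to those of *Epas1*, by the distance in percentage points over the 36 genes, were *Casz1* (3.27 points away), *Smad7* (6.20), *Calcrl* (6.29), *Itpkb* (6.77) and *Clic5* (6.80). *Casz1*, which encodes a zinc finger transcription factor, had 30 DMRs that went from 51.5% to 15.9% but held 4.89% of its CpGs. *Calcrl* had 35 DMRs that went from 55.7% to 7.80% and held 26.7% of its CpGs. The distances of *Smad7*, *Calcrl*, *Itpkb* and *Clic5* lay within 1 point of each other, and without replicate values their order has no error attached.

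**Figure D4:**
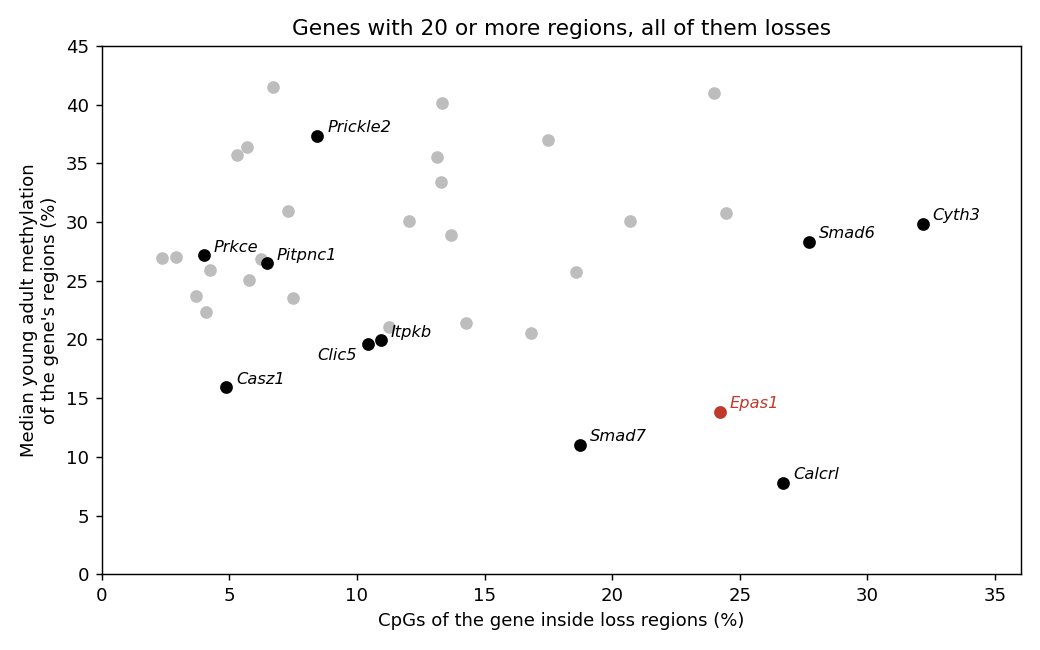
Median young adult methylation level in percent of a gene's DMRs (y axis) against the percentage of the gene's CpGs inside DMRs (x axis), with 1 point for each of the 36 genes that held at least 20 DMRs, all with loss; Epas1 is red, and 10 other genes are named. Epas1 lies at 24.2% and 13.9%, and of the genes that hold a larger share of CpGs in DMRs, Calcrl has a lower level.

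The surroundings of *Epas1* held fewer DMRs than its body, which was chosen for its 46 DMRs and has 1297 CpGs. The number usual for stretches of this size in the genome was not worked out. Within 100 kb before the gene, 2 DMRs were listed among 1187 CpGs, a loss 41.2 kb upstream from 64.1% to 20.5% and the gain 35.0 kb upstream. Within 100 kb after it, 2 DMRs were listed among 1111 CpGs, the gain 53.7 kb downstream and a loss 69.4 kb downstream from 56.2% to 25.9%. The authors' list assigned 18 further DMRs to the *Epas1* promoter as the nearest one, and 16 of these lay in the body of *Prkce* at 120 to 230 kb upstream, all with loss, with medians of 63.7% and 28.7%.

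The HIF pathway beyond *Epas1* was covered by a list of 42 genes by role. At least 1 loss was found in 11 of them (26.2%, against 8.46% of all genes) and at least 1 gain in 2 (4.76%, against 11.4%). When a DMR needed at least 5 CpGs, 3 of the 42 genes (7.14%) held a loss, against 3.17% of all genes. *Epas1*, which was chosen for its losses, is among the 11 and among the 3. Without it, and with DMRs of any CpG number, 10 of 41 genes (24.4%) held 32 losses. Of these losses, 28 lay in target genes. Gains, 2 in number, lay in 2 of the 41 (4.88%). The list was chosen with earlier results of these data known. Genes of the list had a median length of 18.9 kb, and all annotated genes 13.5 kb, and the part of length in these shares was not tested. The other α subunits, *Hif1a* and *Hif3a*, held no DMR. Of the β subunits, *Arnt* held none and *Arnt2* held 2, which went from 28.0% to 9.55% and from 77.7% to 45.8%.

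Of the 4 oxygen sensors, *Egln1*, the main HIF prolyl hydroxylase, held 1 DMR that went from 39.6% to 14.6%, and *Egln2*, *Egln3* and the asparaginyl hydroxylase gene *Hif1an* held none. The 5 genes of the VHL ligase held none. Of the cofactors, the acetyltransferase gene *Crebbp* held 1 DMR (61.8% to 31.4%), and *Ep300* and *Cited2* held none. Of 25 target genes, 7 held a loss and 2 a gain. *Flt1*, a VEGF receptor gene, held 12 losses and 1 gain, the latter from 3.89% to 25.8%. Losses were also found in the VEGF receptor gene *Kdr* (4), the NOTCH ligand gene *Dll4* (5), *Pdgfb* (3), *Angpt2* (2), *Vegfa* (1) and the angiopoietin receptor gene *Tek* (1). *Ndrg1* held a single gain, from 52.0% to 74.0%. The 17 other targets held no DMR.

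**Figure D5:**
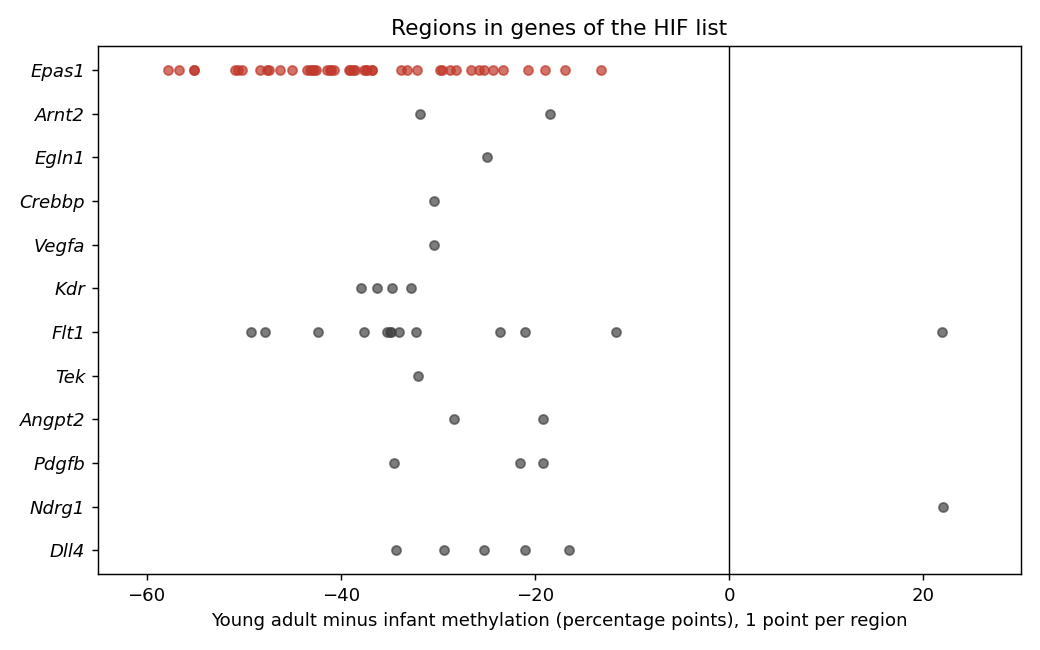
Young adult minus infant methylation level in percentage points (x axis) of each DMR in the genes of the HIF list (y axis), with 1 point per DMR, Epas1 in red and the other 11 genes with a DMR in grey; values left of 0 are losses. The 46 points of Epas1 reach from -57.8 to -13.2, and the 2 points to the right of 0 belong to Flt1 and Ndrg1.

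Because HIF-2α binds DNA at a short core, the letters ACGTG and GCGTG were searched on both strands in windows of 200 bp centred on each DMR. One or both occurred in 20 of 46 windows of *Epas1* (43.5%), in 30.8% of 8422 windows of all losses and in 28.3% of 9911 windows of gains. Each core contains a CpG. In the gene, 131 CpGs lay within a core, and 39 of these (29.8%) were inside DMRs, against 24.2% of all its CpGs. Taken apart, this was 24 of 66 CpGs (36.4%) for ACGTG and 15 of 65 (23.1%) for GCGTG. DMRs begin and end at a CpG, so a core at their edge reaches beyond them, and of 150 core matches 35 (23.3%) lay inside a DMR in full. The 39 CpGs were spread over 25 DMRs, with 5 in region 18, which went from 76.3% to 19.7%, and 3 each in regions 13, 24 and 36. The 300 bases of region 24 with the most matches, chosen after its values were seen, are shown with the cores in capitals; a core on one strand overlaps one on the other within CACGTG.
Region 24, downstream of the predicted first exon, chr17:86786528-86786827: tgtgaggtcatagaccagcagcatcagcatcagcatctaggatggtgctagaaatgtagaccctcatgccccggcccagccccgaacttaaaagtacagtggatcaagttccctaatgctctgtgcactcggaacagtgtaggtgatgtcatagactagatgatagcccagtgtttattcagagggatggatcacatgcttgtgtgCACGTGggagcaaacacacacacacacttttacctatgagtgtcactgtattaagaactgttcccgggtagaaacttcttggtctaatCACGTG
Letters bound by other factor families of EC were searched in the same windows. ETS factors are known for shaping endothelial gene expression, and their letters CAGGAAG, or the variant with a CpG, CCGGAAG, occurred in 10.9% of the *Epas1* windows and in 13.1% of all losses. The AP-1 letters TGANTCA occurred in 6.52% against 6.84%. For the FOX family, which includes endothelial regulators, the letters TGTTTA were found in 10.9% of the *Epas1* windows against 19.2%. The GATA letters AGATAA were found in 8.70% against 13.8%. The KLF letters CCNCACCC occurred in 1 of the 46 windows, or 2.17%, against 8.64% of all losses. SOX letters, ATTGTT, were present in 6.52% against 9.62%, and those of the TEAD family, GGAATG, in 10.9% against 11.2%. A match describes letters only, and binding was not measured in the table.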

How the data were processed

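T-WGBS of sorted lung EC gave the list of DMRs. Per the labels and the study's methods, the authors demultiplexed reads with bcl2fastq 1.8.4, trimmed them with SeqPrep, aligned them to mm10 with BWA 0.6.1, removed duplicates with Picard and called DMRs on unsmoothed methylation with bsseq in R 3.2.2. A DMR needed at least 3 consecutive CpGs, each with p below 0.05 in the authors' test and read 8 times or more in 2 or 3 samples of each age, and group means that differed by at least 10%. The deposited group means are fractions between none and full methylation, and were here multiplied to percent. Reads behind a DMR are unknown, and its size is that of a region selected on the same samples. The authors' columns of direction and nearest promoter were used as labels only.

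All 18333 DMRs were checked to begin and end at a CpG of GRCm38, and placed by midpoint on RefSeq genes (NM_010137 for *Epas1*) with Python 3.11.15, pandas 2.3.3 and pysam 0.24.0. The counting of CpGs, the motif search, the rule for islands and the joining of DMRs were tested on simulated data. Placement by midpoint was not part of this test. The gene, the HIF list, the compared genes and the motifs were chosen with earlier results of these data known. Genes most like *Epas1* were the 5 nearest in median levels among genes with at least 20 DMRs, all losses, and members of the HIF list were named where they held a DMR; 1 gene first placed on that list is not reported here. Alternatives changed the assignment of DMRs to the gene, the minimum difference, the minimum number of CpGs and the joining of neighbours.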

Additional observations from a re-analysis of the deposited data

How the results depend on the processing

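All 46 DMRs were losses, so the median difference was bound to be below 0 in each of its alternatives, and only its size could vary. The intron 1 share, 78.3%, lay between 78.3% and 87.0% in its 4 alternatives (by CpGs, by first base, at 20 points and with at least 5 CpGs). The number of DMRs was 46 with any overlap, 64 by the nearest promoter (1 of them a gain) and 43 at a difference of at least 20 points, but 23 with at least 5 CpGs and 25 after joining DMRs up to 500 bp apart. The median difference of -38.9 points became -37.6 by the nearest promoter, -39.1 at 20 points, -41.4 with at least 5 CpGs, -41.4 as a CpG-weighted mean and -38.7 after joining. Genes of the HIF list with a loss numbered 11 and dropped to 3 with at least 5 CpGs, which leaves fewer DMRs to count. Both counts include *Epas1*. No paired analysis was possible because the table gives group means and no value per sample, and leaving out replicates could not be run for the same reason. Depth behind each DMR is unknown. CpGs without a listed DMR may have had equal levels, too few reads or a difference short of the authors' criteria, and these cannot be told apart.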
